A study of Rattus norvegicus with 17 samples.

Results

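Olfm2, the gene of olfactomedin 2, and 5 relatives of the olfactomedin family, Olfm1, Olfml1, Olfml2a, Olfml2b and Olfml3, were followed in rat fetal testes exposed to dipentyl phthalate (DPeP). They are 6 of the 30560 genes counted. The relatives were taken by their symbols, with each gene identifier counted once. Olfm2 was taken because its level falls strongly with dose in these same libraries, so its values across doses are given as a description with no test. The relatives were not picked for their levels, and they were tested.

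Olfactomedin proteins are mostly secreted glycoproteins that share an olfactomedin domain near the carboxyl end, and they act in the space between cells. Olfm1 and Olfm2, also called noelin 1 and noelin 2, are best known from the brain, where they associate with AMPA-type glutamate receptors. In human and mouse cells Olfm2 has also been described in the smooth muscle differentiation that TGF-beta induces. Olfml2a and Olfml2b, the photomedins, were described in mouse as matrix proteins, and the frog relative of Olfml3 is a scaffold for the breakdown of chordin, an inhibitor of bone morphogenetic proteins (BMP).

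All animals were wild type Sprague Dawley rats. Pregnant dams were gavaged with DPeP, a phthalate ester plasticizer, in corn oil at 2.5 mL/kg on gestational days 17 to 21, and fetal testes were collected on day 21. The 17 libraries of polyA-selected RNA were from fetuses of dams given corn oil alone (n = 3) or DPeP at 1 (n = 3), 11 (n = 3), 100 (n = 3) or 300 (n = 5) mg/kg/d. A sample was 1 testis, or 2 testes pooled within a litter. The labels do not say that no litter gave more than 1 library, so p-values measure the spread between these samples. The same 3 corn oil libraries are the control of all 4 dose comparisons.

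The libraries held 14282274 to 20323488 gene counts. At 100 mg/kg/d, mitochondrial genes held 9.05% of the counts of replicate 05 and 7.76% of those of replicate 18, against 4.35% to 6.16% in the other libraries. All 8 markers each of Leydig, Sertoli and germ cells were detected in every dose group. So were all markers of mesonephric duct, so detection alone does not check the tissue label. Of the 18005 genes tested with edgeR's quasi-likelihood test, 2.40% passed at 300 mg/kg/d and 1.52% at 100 mg/kg/d, each against corn oil, with a threshold of 0.05 on the p adjusted by Benjamini and Hochberg. At 11 and at 1 mg/kg/d 0.00% were called, with 633 and 891 genes at an unadjusted p under 0.05, and DESeq2 called 26 and 0. At 300 mg/kg/d 2391 of the 18005 genes had an unadjusted p under 0.05, and DESeq2 called 746. For 100 mg/kg/d, 300 against 100 mg/kg/d and the slope, such all-gene counts are not given here. Counts of list members by an unadjusted p or by DESeq2 in those comparisons are therefore a description.

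Olfm2 (ENSRNOG00000020519) lies on chromosome 8, 19204475 to 19282117, on the minus strand of mRatBN7.2, with a summed exon length of 2126 bases. Its promoter is shown because Olfm2 is the member whose level moved most. The sequence is from RefSeq, build GRCr8, chr8:27539612-27539911, minus strand, and runs from 250 bases before the annotated start to 50 bases after it, 5′ to 3′.
Olfm2 promoter: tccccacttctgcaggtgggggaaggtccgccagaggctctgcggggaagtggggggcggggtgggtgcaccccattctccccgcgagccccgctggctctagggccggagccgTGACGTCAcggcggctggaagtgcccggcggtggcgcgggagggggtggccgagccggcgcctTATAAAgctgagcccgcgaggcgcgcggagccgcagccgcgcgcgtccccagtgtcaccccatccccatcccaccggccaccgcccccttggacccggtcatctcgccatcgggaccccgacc
The capitals mark TGACGTCA, a cAMP response element motif, at -136 to -129, and TATAAA, a core promoter motif, at -73 to -68, counted with the base that follows the 250 upstream bases as 0. Both motifs were chosen after the sequence was seen. TGACGTCA, searched on both strands, is in 1.83% of the 33469 promoters of this length, and TATAAA, searched on the printed strand, is in 8.8%. All 6 genes matched a promoter by symbol, and Olfm2 was the only one of the 6 to hold either motif. CAAGGTCA, a motif of the steroidogenic factor Nr5a1, was in 1.52% of the promoters on either strand and in none of the 6. The Olfm2 promoter had a GC content of 74.7%, against a median of 51.7% over all promoters, and that of Olfm1 had 64.3%. These are matches of letters, and the counts, summed over the exons of a gene, do not tell which start was used.

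Olfm2 was lower at each of the 3 higher doses than in any corn oil library. In CPM (counts per library total, set to a common total after TMM scaling), Olfm2 stood at 12.5, 8.66 and 11.7 with corn oil and at 13.7, 8.43 and 8.85 at 1 mg/kg/d. It stood at 2.97, 4.25 and 4.66 CPM at 11 mg/kg/d and at 1.60, 1.54 and 1.31 CPM at 100 mg/kg/d. The 5 libraries at 300 mg/kg/d had 1.09, 1.35, 1.52, 1.15 and 1.63 CPM. Libraries at 1 mg/kg/d thus overlapped those with corn oil, all 3 at 11 mg/kg/d lay below them and above every library of the higher doses, and the 100 and 300 mg/kg/d libraries overlapped each other. The share of all tested genes with every library below every corn oil library was 6.94% at 11, 7.89% at 100 and 6.48% at 300 mg/kg/d.

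In means and SD, Olfm2 averaged 11.0 ± 2.04 CPM with corn oil, 10.3 ± 2.94 at 1, 3.96 ± 0.883 at 11, 1.49 ± 0.154 at 100 and 1.35 ± 0.232 at 300 mg/kg/d. The 11 mg/kg/d mean was 36.1% of the corn oil mean, and the 100 and 300 mg/kg/d means were 13.5% and 12.3% of it. Against corn oil, the fitted log2 fold change of Olfm2 was -3.01 at 300 mg/kg/d (SE 0.214, 8.07-fold lower), -2.87 at 100 mg/kg/d (SE 0.254, 7.33-fold lower) and -1.46 at 11 mg/kg/d (SE 0.229, 2.76-fold lower). The differences in Olfm2 thus lay between 1 and 100 mg/kg/d. At 1 mg/kg/d the log2 fold change was -0.08 (SE 0.219), and between 300 and 100 mg/kg/d it was -0.14 (SE 0.255). The precision at the top doses is limited by depth, since Olfm2 had 18 to 29 counts a library at 300 mg/kg/d and 20 to 30 at 100 mg/kg/d, against 155 to 198 with corn oil.

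**Figure D1:**
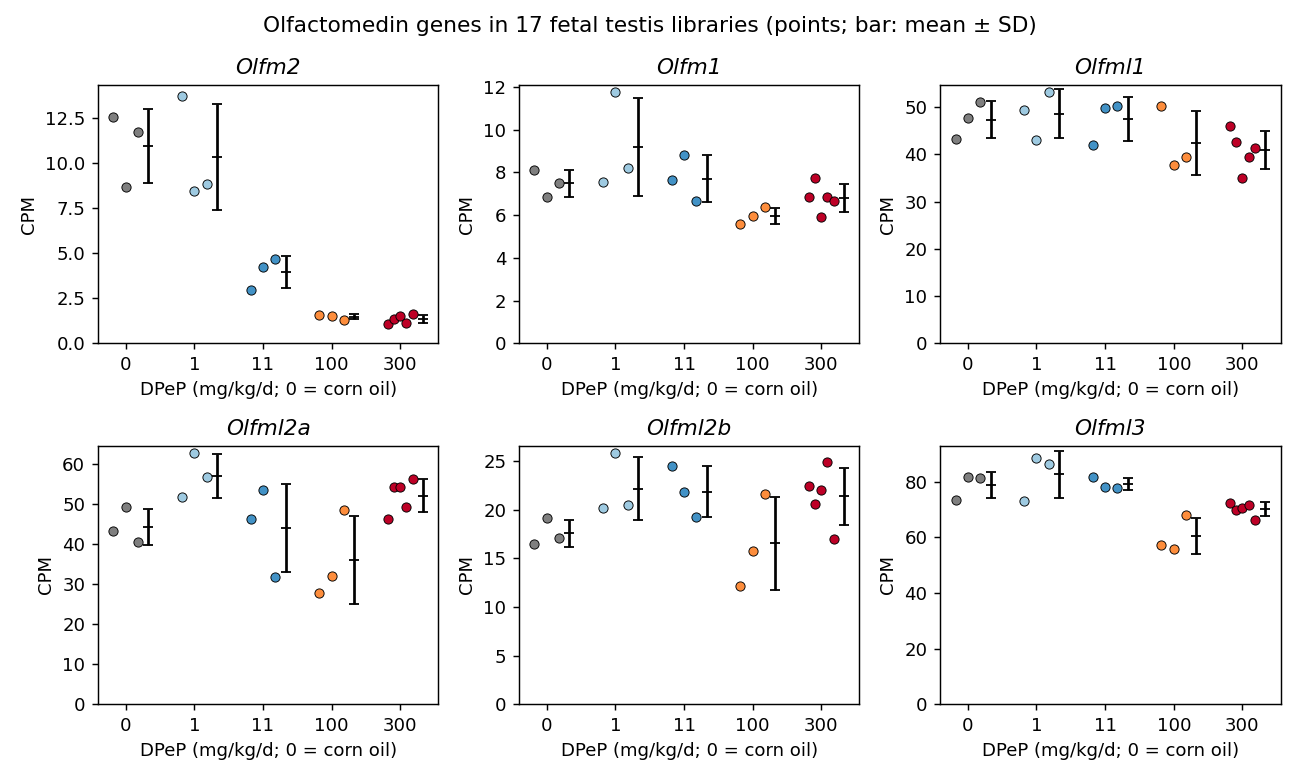
Level of each of the 6 genes in CPM (vertical axis, from 0) by dose group (horizontal axis, mg/kg/d, corn oil at 0), 1 panel a gene, with a point for each library and the mean and SD of each group (n = 3 a group, 5 at 300 mg/kg/d). Olfm2 lies at 1.09 to 4.66 CPM at 11 mg/kg/d and above, under all corn oil libraries, while each relative stays within a 2.26-fold range over the 17 libraries.

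The plot of levels by dose shows how Olfm2 differs from its relatives in spread. Over the 17 libraries, the highest CPM of Olfm2 was 12.6 times its lowest, and for the relatives this ratio ran between 1.52 for Olfml1 and 2.26 for Olfml2a. Ranked from the lowest among the 18005 log2 fold changes, Olfm2 held place 11 at 300 mg/kg/d, place 11 at 100 mg/kg/d and place 38 at 11 mg/kg/d, against place 6190 at 1 mg/kg/d. Of the relatives at 300 mg/kg/d, the one nearest the low end was Olfml1 at place 2689. On the slope over log2(dose + 1), fitted to all 17 libraries, Olfm2 had -0.40 log2 units per step (SE 0.0243) and place 8.

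Within sample codes, a part of the sample titles whose meaning the labels do not give, Olfm2 was as low as in the whole set. Under the code with corn oil replicate 15, the mean log2 ratio of CPM to that library was -3.03 at 300 mg/kg/d, -3.01 at 100 mg/kg/d and -1.65 at 11 mg/kg/d. Under the code with corn oil replicate 01, it was -3.30, -3.02 and -1.56 at the same doses. At 1 mg/kg/d the 3 codes gave -0.47, 0.13 and 0.03. Each code has 1 corn oil library, so these ratios have no replicate check.

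None of the 5 relatives passed the test in any comparison, which is 0 of 5 at each dose, for 300 against 100 mg/kg/d and for the slope. The backgrounds are 2.40% of genes at 300, 1.52% at 100, 0.00% at 11 and 0.00% at 1 mg/kg/d, 0.00555% for 300 against 100 mg/kg/d and 5.72% for the slope. With so few genes called, 0 of 5 is near the background. At an unadjusted p under 0.05 in edgeR's quasi-likelihood test, the relatives numbered 0 at 300, 1 at 100, 0 at 11 and 0 at 1 mg/kg/d, 3 for 300 against 100 mg/kg/d and 3 for the slope. DESeq2 called 0, 1, 0, 0, 1 and 1 of them, in the same order. Over all 18005 genes at 300 mg/kg/d, 2391 had an unadjusted p under 0.05 in edgeR's test, and DESeq2 called 746. Adjusted over all genes in edgeR's test, the 3 for 300 against 100 mg/kg/d had a p of 0.0928 to 0.17. Those for the slope had 0.0619 to 0.161. The all-gene counts of these 2 comparisons and of 100 mg/kg/d are not given here, so the counts there are not read as a result about the relatives. The largest difference of a relative in the comparisons with corn oil was that of Olfml3 at 100 mg/kg/d.

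Olfml3 (ENSRNOG00000019211, chromosome 2, 191244221 to 191247050, minus strand), the BMP-binding member in mouse, was the most abundant of the family. It stood at 57.4, 55.9 and 67.9 CPM at 100 mg/kg/d, in replicates 05, 18 and 19, against 73.5, 81.7 and 81.3 CPM with corn oil. Replicates 05 and 18 had the highest mitochondrial shares, and the part of that share in the result was not tested. All 3 libraries lay below all corn oil libraries, as did 7.89% of tested genes. The log2 fold change was -0.38 (SE 0.0994, interval of 2 SE -0.58 to -0.19), with an adjusted p of 0.0573 in edgeR's quasi-likelihood test. This p lay between 0.00152 and 0.464 over 12 alternatives, and DESeq2 gave 0.00424. The lowest of these, 0.00152, came without replicate 19. Set against the corn oil library of the same sample code, the log2 ratio of Olfml3 was -0.38 and -0.39 in the 2 codes that hold this dose. At 300 mg/kg/d Olfml3 stood at 72.5, 70.0, 70.5, 71.8 and 66.3 CPM, again below all corn oil libraries, as did 6.48% of tested genes. The fitted log2 difference was -0.17 (SE 0.0881, adjusted p = 0.443). At 1 mg/kg/d it stood at 73.1, 88.7 and 86.3 CPM and at 11 mg/kg/d at 81.6, 78.1 and 77.6 CPM, both overlapping corn oil.

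Olfml2a (ENSRNOG00000014034, chromosome 3, 22688598 to 22717909, plus strand) and Olfml2b (ENSRNOG00000003018, chromosome 13, 82869433 to 82906607, plus strand), the photomedins, varied most at 100 mg/kg/d. Olfml2a stood at 46.2, 54.3, 54.2, 49.3 and 56.3 CPM at 300 mg/kg/d and at 27.7, 31.9 and 48.4 CPM at 100 mg/kg/d, in replicates 05, 18 and 19. Olfml2b stood at 22.5, 20.6, 22.0, 24.9 and 17.0 CPM at 300 mg/kg/d and at 12.1, 15.8 and 21.6 CPM at 100 mg/kg/d. In both genes the low libraries at 100 mg/kg/d were the same 2 whose mitochondrial share was highest, and the part of that share in the result was not tested. For 300 against 100 mg/kg/d the log2 difference was 0.53 for Olfml2a (SE 0.164, adjusted p = 0.0928) and 0.37 for Olfml2b (SE 0.162, adjusted p = 0.17), by edgeR's quasi-likelihood test. Without replicates 05 and 18 the Olfml2b difference was -0.012. Without replicate 19 instead, Olfml2a, Olfml2b and Olfml3 all passed the test, at adjusted p of 0.00067, 0.00609 and 0.00948, and 5872 genes were called, against 1 gene with all libraries.

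Against corn oil at 43.2, 49.3 and 40.5 CPM, the fitted log2 difference of Olfml2a at 300 mg/kg/d was 0.23 (SE 0.162, adjusted p = 0.595). Olfml2b, at 16.5, 19.2 and 17.0 CPM with corn oil, had one of 0.28 (SE 0.161, adjusted p = 0.49). At 1 mg/kg/d all libraries of both genes lay above corn oil, at 51.8, 62.7 and 56.7 CPM for Olfml2a and at 20.2, 25.9 and 20.4 CPM for Olfml2b. This holds for 6.47% of tested genes, and the log2 fold changes of 0.36 (SE 0.180) and 0.33 (SE 0.179) each had an adjusted p of 0.864. At 11 mg/kg/d Olfml2b, at 24.5, 21.8 and 19.2 CPM, lay above all corn oil libraries, as did 5.28% of tested genes, and Olfml2a did not.

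Olfm1 (ENSRNOG00000009862, chromosome 3, 11520729 to 11558239, plus strand), the other noelin, was the least abundant relative. It stood at 6.84, 7.72, 5.91, 6.86 and 6.64 CPM at 300 mg/kg/d, against 8.10, 6.87 and 7.50 CPM with corn oil. The groups overlapped. The fitted log2 difference was -0.14 (SE 0.161, interval -0.46 to 0.18, adjusted p = 0.787). Olfm1 at 100 mg/kg/d stood at 5.61, 5.97 and 6.36 CPM, below all corn oil libraries, as did 7.89% of tested genes. The log2 difference was -0.32 (SE 0.183, adjusted p = 0.335). The lower bounds of these intervals, -0.46 at 300 and -0.69 at 100 mg/kg/d, lie above the values of Olfm2 at the same doses. An unnamed gene that overlaps Olfm1 on the same strand had 0 to 3 counts a library.

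Olfml1 (ENSRNOG00000056562, chromosome 1, 161478242 to 161502537, plus strand) had the narrowest range of CPM over the 17 libraries. It stood at 46.1, 42.7, 35.1, 39.4 and 41.3 CPM at 300 mg/kg/d, against 43.3, 47.6 and 51.1 CPM with corn oil. The groups overlapped, and the log2 fold change was -0.21 (SE 0.115, interval -0.44 to 0.02, adjusted p = 0.465). On the slope over log2(dose + 1), Olfml1, Olfm1 and Olfml3 had -0.030 (SE 0.0114, adjusted p = 0.138), -0.044 (SE 0.0176, adjusted p = 0.161) and -0.035 (SE 0.0109, adjusted p = 0.0619). All 3 are flatter than the Olfm2 slope of -0.40. With the total of the spike-in RNA as library size, the median of all genes at 300 mg/kg/d moved up by 0.42 log2 units, and the ratios of Olfm1, Olfml1 and Olfml3 at that dose turned to 0.27, 0.21 and 0.24, while that of Olfm2 was -2.57.

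**Figure D2:**
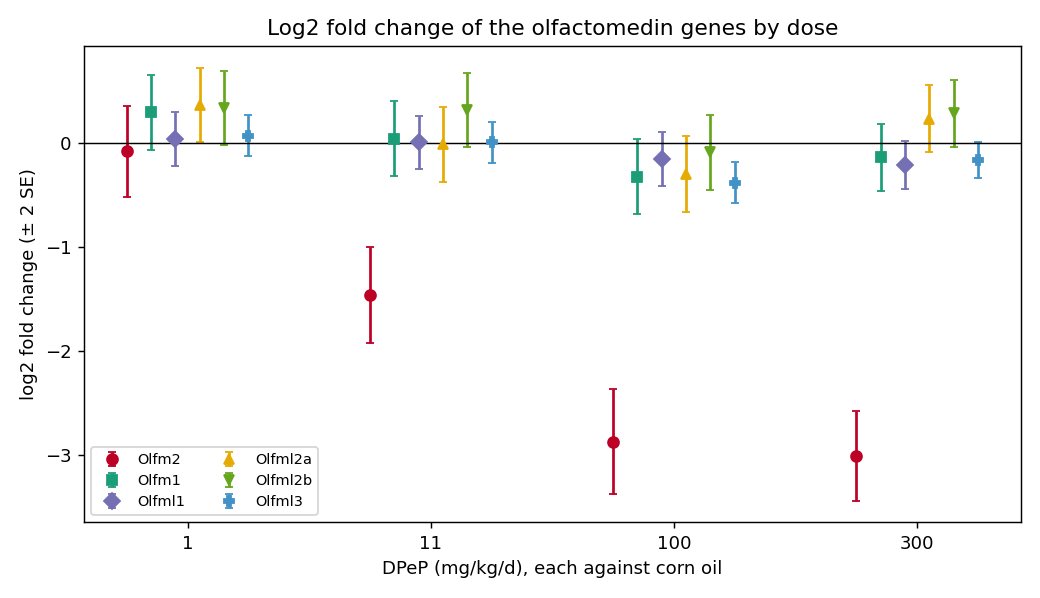
Log2 fold change against corn oil (vertical axis) of the 6 genes at 1, 11, 100 and 300 mg/kg/d (horizontal axis), with bars of 2 SE from edgeR's fit of 17 libraries. Olfm2 lies at -1.46, -2.87 and -3.01 at the 3 higher doses, and the relatives lie between -0.38 and 0.36 at all 4 doses.

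Per length of transcript, the order of the family changed with dose. In TPM (counts over exon length, brought to a common total), the corn oil means were 104 ± 3.82 for Olfml3, 37.7 ± 1.84 for Olfml1, 17.7 ± 2.03 for Olfml2a, 13.1 ± 1.07 for Olfml2b, 12.0 ± 2.38 for Olfm2 and 4.81 ± 0.504 for Olfm1 (SD, n = 3 each). Olfml2b at 12.3 to 14.3 TPM and Olfm2 at 9.50 to 14.2 TPM overlapped with corn oil, and the other neighbours in this order did not. In that group Olfml3 had a higher TPM than 91.5% of tested genes, Olfm2 than 45.8% and Olfm1 than 30.8%.

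At 300 mg/kg/d Olfm2 was the lowest of the 6, at 1.22 to 1.90 TPM, and Olfm1 lay above it at 3.88 to 5.20 TPM. The gap was of the same kind at 100 mg/kg/d, with Olfm2 at 1.43 to 1.56 TPM and Olfm1 at 2.92 to 4.42 TPM. At 11 mg/kg/d their ranges overlapped, at 3.40 to 5.58 TPM for Olfm2 and 4.65 to 5.90 TPM for Olfm1. The median ratio of Olfm2 to Olfm1 TPM was 2.65 with corn oil, 1.84 at 1, 0.824 at 11, 0.443 at 100 and 0.300 at 300 mg/kg/d. Olfm2 thus passed from above Olfm1 to below it within the dose series.

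**Figure D3:**
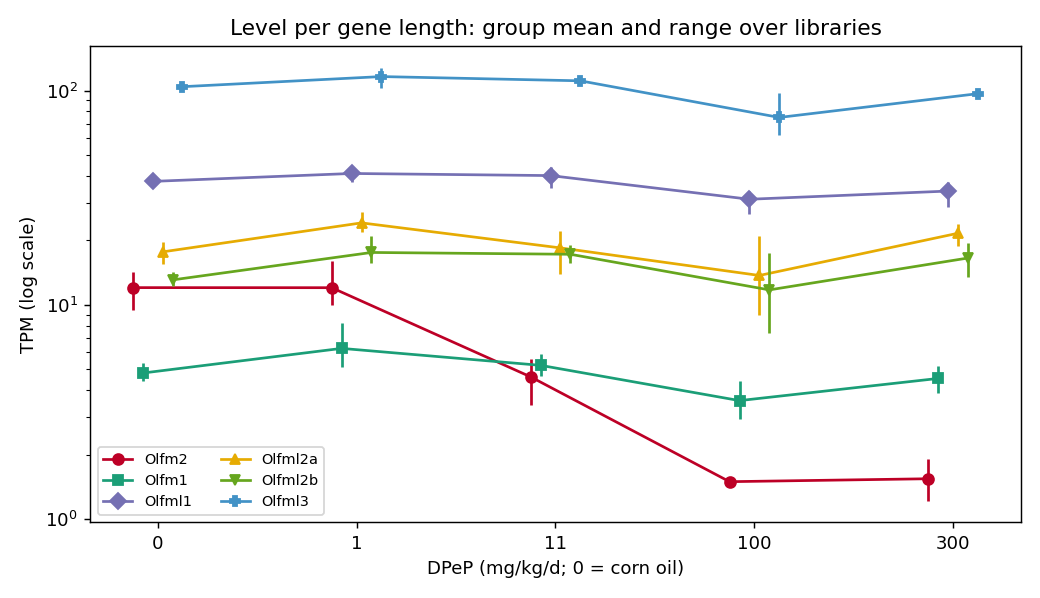
Level per transcript length (vertical axis, TPM on a log scale) of the 6 genes by dose group (horizontal axis, mg/kg/d, corn oil at 0), with the mean of each group as a point and the range of its libraries as a bar. Olfm2 averages 12.0 TPM with corn oil, above Olfm1 at 4.81, and 1.54 TPM at 300 mg/kg/d, below Olfm1 at 4.54.

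As a share of the summed TPM of the 6 genes, Olfm2 made up 6.37% ± 1.38 with corn oil, 5.60% ± 1.94 at 1, 2.34% ± 0.558 at 11, 1.13% ± 0.211 at 100 and 0.884% ± 0.176 at 300 mg/kg/d (SD, n = 3 a group, 5 at 300 mg/kg/d). The sum itself was 169 to 179 TPM at 300 mg/kg/d and 115 to 176 TPM at 100 mg/kg/d, against 187 to 194 TPM with corn oil. At 100 mg/kg/d Olfml3, the most abundant member, was at 61.9, 65.5 and 97.7 TPM in replicates 05, 18 and 19. Replicates 05 and 18 had the highest mitochondrial shares, and the part of that share in the TPM sum was not tested. The sum was 204 to 232 TPM at 1 and 195 to 199 TPM at 11 mg/kg/d.

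The genes most like Olfm2 were named by the highest Pearson correlation of log2 CPM over the 17 libraries among tested genes with a symbol. The libraries share dose groups, so the correlations follow the dose series and are a description. They were Vnn3, a vanin (r = 0.961), Entpd5, a nucleoside diphosphatase of the endoplasmic reticulum (0.958), Gpc4, a glypican of the cell surface (0.958), Mrap, the accessory protein of the ACTH receptor (0.951), and Aox1, an aldehyde oxidase (0.949). The next were Gsta2, a glutathione transferase (0.948), Dner, a transmembrane protein with EGF-like repeats (0.943), Lefty2, an inhibitor of Nodal (0.942), Stc2, a stanniocalcin (0.938), and Gpr55, a receptor for lysophospholipids (0.934). With Spearman's correlation, 3 of these 10 remained among the 10 most like Olfm2. For the relatives, r with Olfm2 was 0.633 for Olfml3, 0.586 for Olfml1, 0.567 for Olfm1, 0.144 for Olfml2a and -0.04 for Olfml2b. The 10 were picked for the highest r, so any other tested gene with a symbol has a lower r than they do.

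The 10 genes differed in how low they stood. At 1, 11, 100 and 300 mg/kg/d, Gsta2 averaged 104%, 24.7%, 2.47% and 0.97% of its corn oil mean and Vnn3 85.5%, 15.1%, 5.59% and 1.25%. Gpc4 averaged 95.8%, 63.6%, 44% and 47.4%. At 11 mg/kg/d Olfm2 was at 36.1%, lower than Entpd5 at 70.1%, Gpr55 at 62.9%, Aox1 at 61.4%, Stc2 at 58.5% and Mrap at 44.9%, and higher than Lefty2 at 30.4%. Between the top doses, Mrap stood at 9.96% at 300 mg/kg/d and at 18% at 100 mg/kg/d, while Olfm2 stood at 12.3% and 13.5%.

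**Figure D4:**
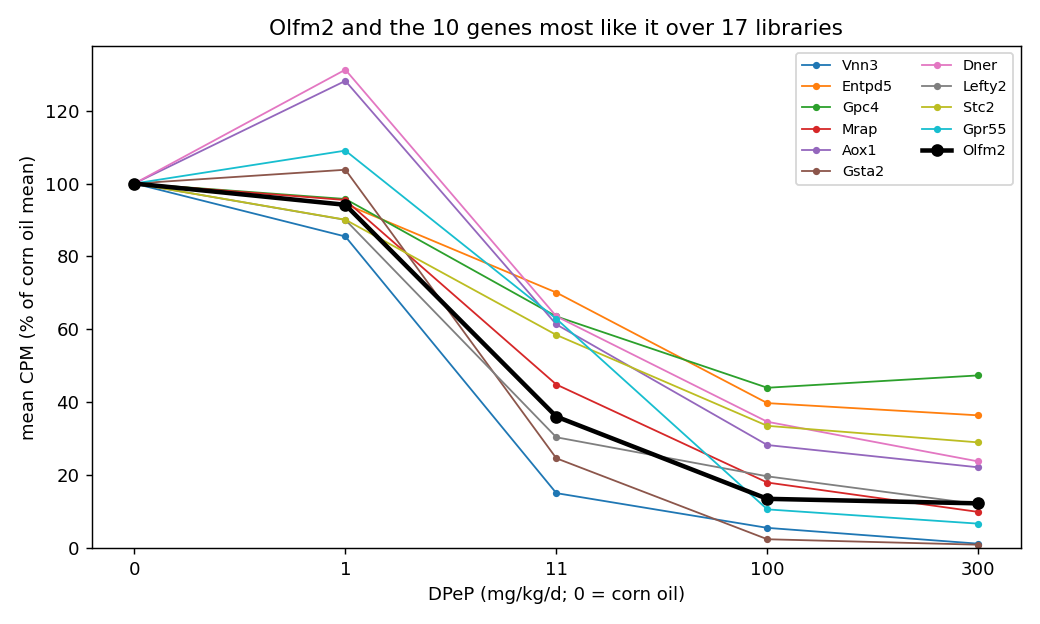
Mean CPM of Olfm2 and of the 10 genes most like it, as a percent of each gene's corn oil mean (vertical axis), by dose (horizontal axis, mg/kg/d). Olfm2 stands at 94.2% at 1, 36.1% at 11, 13.5% at 100 and 12.3% at 300 mg/kg/d.

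The genes most like each relative were of other kinds. Col1a1 and Col1a2, chains of type I collagen, and Nos3, the endothelial nitric oxide synthase, were most like Olfm1 (r = 0.886, 0.873 and 0.881). Lonrf3, Cdc42 and Dpt were most like Olfml1 (0.843, 0.82 and 0.818), and Rab15, Wnt5a and Phlpp1 most like Olfml2a (0.918, 0.906 and 0.901). Zfand3, Rnf40 and Pnpla2 were most like Olfml2b (0.898, 0.885 and 0.884), and Anp32b, C1qbp and C1qtnf6 most like Olfml3 (0.96, 0.949 and 0.943). None of these 15 stood among the 10 most like Olfm2.

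Markers of Leydig cells, the androgen-making cells of the testis, were mostly low at the top doses, where Olfm2 was low. At 300 mg/kg/d 8 of 8 fell (median log2 fold change -1.97) and at 100 mg/kg/d 7 of 8 (median -1.36), against 1.41% and 1.03% of all genes. At 11 mg/kg/d 0 of the 8 were called by edgeR, with a median of -0.651, 7 at an unadjusted p under 0.05 and 1 called by DESeq2. At 1 mg/kg/d 0 were called by either tool, with a median of -0.354 and 2 at an unadjusted p under 0.05. The log2 fold change of Olfm2 there was -0.08. For 300 against 100 mg/kg/d, where Olfm2 had -0.14, all 8 markers had values below 0 (median -0.561). In that comparison edgeR called 0 of the 8 and DESeq2 5, with 5 at an unadjusted p under 0.05. The summed CPM of the list was 1437 to 2284 at 300 mg/kg/d and 2617 to 3767 at 100 mg/kg/d, against 5598 to 6973 with corn oil, and no marker was at 0. Olfm2 per 1000 CPM of this sum was 0.477 to 1.14 CPM at 300, 0.410 to 0.501 at 100 and 0.622 to 1.29 at 11 mg/kg/d, against 1.55 to 1.83 with corn oil. The sum rests on a few abundant markers, and 1 of them, Hsd3b1, a steroid dehydrogenase, was not called at 100 mg/kg/d, at 1387 ± 609 CPM, against 1241 ± 95.2 CPM with corn oil. In bulk tissue, fewer cells of a type and less RNA per cell cannot be told apart, and the part of Leydig cell number in the level of Olfm2 was not tested.

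Other cell markers at 300 mg/kg/d moved in smaller numbers. Of 8 Sertoli markers 4 rose (Amh, Sox8, Dhh and Clu), against 0.994% of all genes. Of 8 germ cell, 8 Schwann and neural and 6 mesonephric duct markers, Nanos2, Sox10 and Lcn2 rose. Of 6 fibroblast and 6 macrophage markers, Dpt and Tyrobp fell, and 0 of 6 myoid and 0 of 6 endothelial markers were called by edgeR or DESeq2, with 2 of each at an unadjusted p under 0.05. At 100 mg/kg/d, where Olfml3 and Olfm1 lay below corn oil, the summed CPM of the fibroblast markers was 7385 to 9103, against 10066 to 10797 with corn oil. Col3a1 and Col1a1, collagen chains, made up most of that sum. Single fibroblast markers differed in sign at 100 mg/kg/d, with log2 fold changes of -0.47 for Col3a1 and 0.19 for Dcn, and edgeR called 0 of 6, DESeq2 1, with 2 at an unadjusted p under 0.05. The summed CPM of the endothelial markers was 204 to 334 at 100 mg/kg/d, against 405 to 413 with corn oil. Of these 6, edgeR called 1 as fallen (Cdh5), against 1.03% of all genes. DESeq2 called 3, and 5 had an unadjusted p under 0.05. The sum of the germ cell markers was 617 to 839 at 100 mg/kg/d, against 461 to 545 with corn oil. Of these 8, edgeR called 1 as risen (Dazl), against 0.494% of all genes. DESeq2 called 5, and 7 had an unadjusted p under 0.05. The all-gene counts at an unadjusted p under 0.05 and by DESeq2 at 100 mg/kg/d are not given here, so the marker counts by them are not read against a background. The part of these markers in the levels of the relatives was not tested.

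The other genes with an olfactomedin domain, Olfm3, Olfm4, Myoc, Gldn and Adgrl1 to Adgrl3, gave no call by edgeR in any comparison. DESeq2 called 1 of them, Gldn, on the slope. There edgeR's quasi-likelihood test gave Gldn -0.077 per step (SE 0.0234, adjusted p = 0.0542). Of the 7 genes 4 were tested, and 0 rose and 0 fell at 300 mg/kg/d, with a median log2 fold change of -0.195, against 0.0102 over all tested genes. None of the 4 had an unadjusted p under 0.05 at that dose, and DESeq2 called 0. Adgrl1, a latrophilin receptor of the cell surface, averaged 302 ± 22.7 CPM at 300 mg/kg/d, against 285 ± 53.6 CPM with corn oil (log2 fold change 0.08, adjusted p = 0.878). Gldn, gliomedin, averaged 54.0 ± 14.5 CPM at 300 mg/kg/d, against 72.0 ± 12.6 CPM with corn oil (log2 fold change -0.42, adjusted p = 0.404). The list at 100 mg/kg/d again had 0 up and 0 down, with a median of -0.16, against 0.0468 over all tested genes, 1 (Gldn) at an unadjusted p under 0.05, and 0 called by DESeq2.

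A list of AMPA receptor and Nogo receptor complex genes held receptors described to associate with noelins in the nervous system, with their co-receptors and auxiliary proteins. It gave 0 calls of 9 tested at 300 mg/kg/d (median -0.0537). At that dose 4 (Gria3, Gria4, Ngfr and Tnfrsf19) had an unadjusted p under 0.05, against 2391 of all 18005 genes, and DESeq2 called 0. Ngfr, the p75 neurotrophin receptor, averaged 51.9 ± 8.96 CPM at 300 mg/kg/d, against 69.4 ± 9.54 CPM with corn oil (log2 fold change -0.42, adjusted p = 0.18). Gria4, an AMPA receptor subunit, averaged 30.6 ± 4.01 CPM at 300 mg/kg/d, against 41.1 ± 7.18 CPM with corn oil (-0.42, adjusted p = 0.37). Of the 9, 1 fell at 100 mg/kg/d, against 1.03% of all genes. It was again Ngfr, at 40.2 ± 8.92 CPM, against 69.4 ± 9.54 CPM with corn oil (log2 fold change -0.79, SE 0.171, adjusted p = 0.0215 by edgeR's quasi-likelihood test). On the slope the same test gave Ngfr -0.086 per step (SE 0.0219, adjusted p = 0.0214), and DESeq2 called Ngfr there and at 100 mg/kg/d. At 100 mg/kg/d Ngfr was called in 7 of 12 alternatives. Without replicates 05 and 18 its log2 fold change was -0.66 and its adjusted p 0.179, and the call was also lost with the compared groups fitted alone (0.192), without replicate 05 alone (0.0802), without corn oil replicate 15 (0.109) and without corn oil replicate 01 (0.0913).

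Smooth muscle genes gave 0 calls of 12 tested at 300 mg/kg/d, and all 12 had values above 0 (median 0.335, against 0.0102 over all tested genes). Of these, 2 (Cnn1 and Myh11) had an unadjusted p under 0.05, against 2391 of all 18005 genes, and DESeq2 called 0. The list holds all 6 myoid markers above, and these 2 are the same 2 genes as there. Acta2, smooth muscle actin, averaged 595 ± 95.9 CPM at 300 mg/kg/d, against 462 ± 16.5 CPM with corn oil (log2 fold change 0.37, adjusted p = 0.408). Cald1, caldesmon, averaged 374 ± 29.7 CPM at 300 mg/kg/d, against 370.3 ± 10.9 CPM with corn oil (0.01, adjusted p = 0.973). The median of this list at 100 mg/kg/d was -0.0479. There edgeR and DESeq2 called 0, and 1 (Hey2) had an unadjusted p under 0.05. At 1 mg/kg/d, where Olfm2 overlapped corn oil, the median was 0.366, all but 1 of the 12 had values above 0, 5 had an unadjusted p under 0.05, and both tools called 0. The median at 11 mg/kg/d was 0.198.

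Among 15 genes of BMP, chordin and TGF-beta signals, all tested, 1 rose and 0 fell at 300 mg/kg/d, against 0.994% and 1.41% of all genes, with a median of 0.114, against 0.0102 over all tested genes. It was Bmp7, a BMP ligand, at 22.6 ± 4.32 CPM at 300 mg/kg/d, against 13.0 ± 0.748 CPM with corn oil (log2 fold change 0.79, SE 0.192, adjusted p = 0.0291 by edgeR's quasi-likelihood test). The 5 libraries, at 18.2 to 28.7 CPM, lay above the corn oil range of 12.6 to 13.9 CPM, as did 5.82% of tested genes. The call did not hold with any of the 3 corn oil libraries left out (adjusted p of 0.0924 to 0.116), without replicate 13, 14 or 20 at 300 mg/kg/d (0.0741, 0.0684 and 0.0681) or with a term for the sample code (0.116). It held in 7 of 14 alternatives, among them DESeq2 (0.00292), the compared groups fitted alone (0.00633) and no low-count filter (0.00878). On the slope both tools called Bmp7, at 0.099 per step in edgeR's quasi-likelihood test (SE 0.0183, adjusted p = 0.00199). At 100 mg/kg/d edgeR and DESeq2 called 0 of the 15 (median 0.0204), and 3 had an unadjusted p under 0.05.

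Genes near Olfm2 on chromosome 8 did not share its values. Within 250000 bases, a window chosen after the values were seen, 15 neighbours were tested, and 0 were called at 300 mg/kg/d, 0 at 100 mg/kg/d and 0 on the slope by edgeR. At an unadjusted p under 0.05 there were 1, 4 and 2 of them, and DESeq2 called 0, 1 (S1pr2) and 0. Over all 18005 genes, 2391 had an unadjusted p under 0.05 at 300 mg/kg/d. The all-gene counts at 100 mg/kg/d and on the slope are not given here, so the counts there are not read as a result about the neighbours. In edgeR's test the lowest adjusted p of a neighbour was 0.123 at 100 mg/kg/d and 0.138 on the slope. The log2 fold changes of the neighbours were -0.34 to 0.74 at 300 mg/kg/d and -0.30 to 0.40 at 100 mg/kg/d.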

How the data were processed

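RNA of fetal testes was sequenced in 17 libraries. Per the submitters' processing notes, the authors trimmed reads with Trimmomatic 0.36, aligned them with STAR 2.5.2b to mRatBN7.2 and counted them with featureCounts of Subread 1.5.2. The gene-model release and the strand setting are stated nowhere in the labels or headers, and the NEBNext kit named in the labels does not mark strand. The deposited files hold raw read counts per gene, with coordinates and exon length, per the file headers. A deposited table of the same counts repeats rows (47125 for 30652 identifiers), and 0 counts differed. Deposited score columns of length-scaled values and log2 values by the authors were not used here. The 92 spike-in rows were left out of totals and tests.

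Levels are CPM with TMM-scaled library sizes, and TPM, both computed here from the counts. Groups were compared with edgeR 4.0.16 in R 4.3.3: the quasi-likelihood F test, TMM, filterByExpr by dose group, 1 fit of 17 libraries, Benjamini-Hochberg adjustment over 18005 genes. All 6 members passed the filter. SE is the absolute log2 fold change divided by the root of F. Log2 CPM used a prior count of 2. DESeq2 1.42.0, RLE size factors, no low-count filter, fits of the compared groups alone, sample codes, other dose scales and left-out libraries were alternatives. Scripts were tested on simulated data. Counts of replicates differed by more than sampling noise (chi-square per degree of freedom of 6.85 to 85.4), so no library was counted as a duplicate.

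The named genes were the 6 members, the 10 genes most like Olfm2 and the 3 most like each relative by Pearson correlation, and from each of 4 lists up to 4 called members at 300 mg/kg/d or else the 2 of highest mean CPM. Ngfr at 100 mg/kg/d, genes named only for an unadjusted p, the called markers, Hsd3b1, Col3a1, Dcn and S1pr2 were named after their values were seen. The members and lists were chosen with earlier results of these data known.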

Additional observations from a re-analysis of the deposited data

How the results depend on the processing

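The count of relatives called was the same in 77 of 85 settings over the 6 comparisons. At 100 mg/kg/d against corn oil it was 1 with RLE size factors (Olfml3, adjusted p = 0.0447), 1 with DESeq2 (Olfml3) and 0 to 2 with single libraries left out, the 2 being Olfml2a and Olfml3 without replicate 19 at 100 mg/kg/d (adjusted p of 0.0161 and 0.00152). For 300 against 100 mg/kg/d it was 1 with DESeq2 (Olfml2a) and 0 to 3 with single libraries left out. For the slope it was 1 with DESeq2 (Olfml3), 1 without replicates 05 and 18 at 100 mg/kg/d (Olfml3, adjusted p = 0.0287) and 0 to 2 with single libraries left out, the 2 being Olfml1 and Olfml3 without replicate 05 at 100 mg/kg/d. In each of these the cause was not tested.

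Without replicates 05 and 18 at 100 mg/kg/d the log2 value turned to 0.11 for Olfml2a and 0.28 for Olfml2b at 100 mg/kg/d, to 0.050 for Olfm2, 0.062 for Olfml1 and -0.012 for Olfml2b for 300 against 100 mg/kg/d, and to 0.0085 for Olfml2a on the slope. With single libraries left out the values crossed 0 for Olfml2b at 100 mg/kg/d (-0.33 to 0.071), Olfml1 for 300 against 100 mg/kg/d (-0.13 to 0.087), and the slopes of Olfml2a (-0.014 to 0.0033) and Olfml2b (-0.0058 to 0.012). The slope of Olfml2a was 0.0022 on group ranks and 0.0023 with a term for sample code. The Olfm2 log2 fold change stayed within -3.16 to -2.91 at 300 mg/kg/d over 14 alternatives and -3.07 to -2.77 at 100 mg/kg/d over 12.

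The number of genes called over all settings was 212 to 869 at 300 mg/kg/d (432 as reported) and 45 to 4250 at 100 mg/kg/d (274 as reported, 4250 without replicate 19). It was 0 to 26 at 11 mg/kg/d, 0 to 3 at 1 mg/kg/d, 0 to 5872 for 300 against 100 mg/kg/d and 586 to 1711 for the slope (1030 as reported). Scaling by spike-in RNA, and leaving replicates 05 and 18 out of 300 mg/kg/d against corn oil, were chosen after seeing the data. Libraries could not be paired by replicate number, because the dose groups share no replicate numbers. The sample codes do recur across dose groups, and with a term for them edgeR called 0 of the 5 relatives in each comparison, with 270 genes called at 300 mg/kg/d, 189 at 100 mg/kg/d and 586 for the slope. With 18 to 30 counts of Olfm2 a library at the top doses, the difference between 100 and 300 mg/kg/d is not resolved at this depth.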
